A study of Mus musculus with 6 samples.

Results

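The genes of the nuclear pore and of the receptors that carry cargo through it were described in resting and CpG-stimulated mouse B cells. Members were picked by symbol, by a rule chosen with earlier results of these data known. The rule took symbols in which Nup, Xpo, Ipo or Tnpo is followed by a digit, and symbols beginning Kpn. It also took Ran, Ranbp1, Rangap1, Rcc1, Cse1l, Xpot, Nutf2 and Ndc1. Of 23420 genes in the files, 51 matched, and 49 of these had a value above -0.76 log2 CPM (reads of a gene scaled to all counted reads), the value of 10 reads, in at least 3 samples. They are 49 of the 11233 genes that passed the same filter. The 2 genes left out were Kpna7, which lay between -5.33 and -5.06 in all samples, and Nup62cl, which lay between -4.97 and -2.07. Of the 49, 48 were above the filter in both groups, and Nup62-il4i1 passed only through the CpG-stimulated samples. The symbol Ndc1 is not used in the files, which list that gene under its older name, Tmem48, so it is described with the other pathway genes.

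The nuclear pore complex is a channel through the nuclear envelope built from nucleoporins, which form outer and inner rings, a central channel of disordered FG repeats, cytoplasmic filaments and a nuclear basket. Importins carry proteins inward and exportins carry proteins and RNA outward, and both read the state of the small GTPase Ran. RCC1 keeps Ran loaded with GTP in the nucleus and RANGAP1 makes it hydrolyze GTP in the cytoplasm, so that importins release cargo inside and exportins outside. In B cells this traffic includes NF-κB, which enters the nucleus through importins once a Toll-like receptor has been engaged.

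B cells were purified with beads from spleens of WT BALB/c mice of 7 to 11 weeks, and 10 M cells at 10 M per ml were cultured for 4 hours. There were 3 samples with 10 μg/ml of CpG ODN 1826, a DNA agonist of TLR9, and 3 unstimulated samples, from 3 mice. In both groups the labels give the sex as female for replicates 1 and 2 and as male for replicate 3. Values are log2 CPM after quantile normalization, on a scale where the value of a gene without reads corresponds to a library of 17.8 M reads.

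All 7 B cell markers examined were above the filter in every sample, and their summed level was 11.3–11.5 log2 CPM in CpG-stimulated and 11.8–12.1 in unstimulated samples. None of 6 T cell markers and none of 4 NK cell markers reached the value of 10 reads in the mean, 3 of 6 myeloid markers did, and the myeloid sum was 3.29–3.94 against 2.75–3.70. The myeloid sum was carried by Emr1, which was 2.76, 3.33 and 3.40 after CpG and 1.96, 2.29 and 2.76 without, and the means of the other 5 were lower after CpG. The sum of 4 plasma cell markers, all 4 above the filter, was 8.87–9.23 against 9.69–10.2. Most of this sum was Igj. Igj, Xbp1 and Sdc1 were lower in every CpG-stimulated sample, while Prdm1 overlapped between groups (log2FC -0.12, FDR 0.549). The NK cell sum was -0.55 to 0.47 against -2.06 to -1.66, which followed Klrb1c alone (-0.84, 0.23 and 0.23 against -4.27, -4.79 and -4.90), and the other 3 NK cell markers were under -2 in every sample. The T cell sum was -1.0 to -0.66 against -1.30 to -0.73. Of 6 erythroid markers, 4 were above the filter, and Hba-a1 and Hba-a2 were at the value of a gene without reads. The erythroid sum was 8.58–12.3 against 8.66–11.9, with replicate 2 the highest in both groups, at 0.490% and 0.385% of all CPM against 0.0384%–0.0611% in the other 4 samples. The part of these other cells in the results was not tested. Without replicate 2 of both groups, 37 members rose and 3 fell. In bulk RNA, fewer cells of a type and less RNA per cell cannot be told apart, and after quantile normalization a change in total RNA per cell cannot be seen.

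Most of these genes were higher after CpG. Of the 49 members, 36, Nup62-il4i1 included, rose at an FDR under 0.05 (73.5%, against 37.6% of all genes tested) and 3 fell (6.12%, against 36.7%), while 10 did not pass. The log2FC was over 1 in 17 members, against 15.8% of all genes, and under -1 in 0 members, against 15.3%. Every CpG-stimulated sample lay above every unstimulated sample in 37 members (39.1% of all genes) and below in 5 (38.6% of all genes), and the groups overlapped in 7. The median log2FC of the members was 0.73, and that of all genes tested was 0.00. Over the 48 members above the filter in both groups, 35 rose, 16 of them by a log2FC over 1, and the median was 0.70.

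Roles differed in how far they moved, as the plot of all members by role shows. The median log2FC was 1.72 in 5 Ran cycle genes, 1.33 in 7 genes of the Y complex, 1.18 in 2 central channel genes and 0.73 in 5 inner ring genes. It was 0.77 in 5 importin alpha genes, which moved in both directions, and 0.58 in 11 genes of the importin beta family. It was lower in the 2 membrane genes (0.54), the 2 cytoplasmic filament genes (0.30), the 2 nuclear basket genes (0.08) and the 7 exportins (0.08). Of all 20 nucleoporins, 15 rose (75%) and 1 fell (5%), and of all 23 transport receptors, 15 rose (65.2%) and 2 fell (8.70%). Of all genes tested, 37.6% rose and 36.7% fell. These are counts and medians, and differences between roles were not tested. Only genes under the naming rule entered them. Among those left out were Nupl2 (log2FC 1.56) and Ranbp2 (-0.19) of the filaments, and Tmem48 (1.05) and Pom121 (0.49) of the membrane. Others were Tpr (0.01) of the basket, and Sec13 (0.86) and Seh1l (0.64) of the Y complex. Nupl1 (0.59) of the central channel, named after its value was seen, was also left out.

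**Figure D1:**
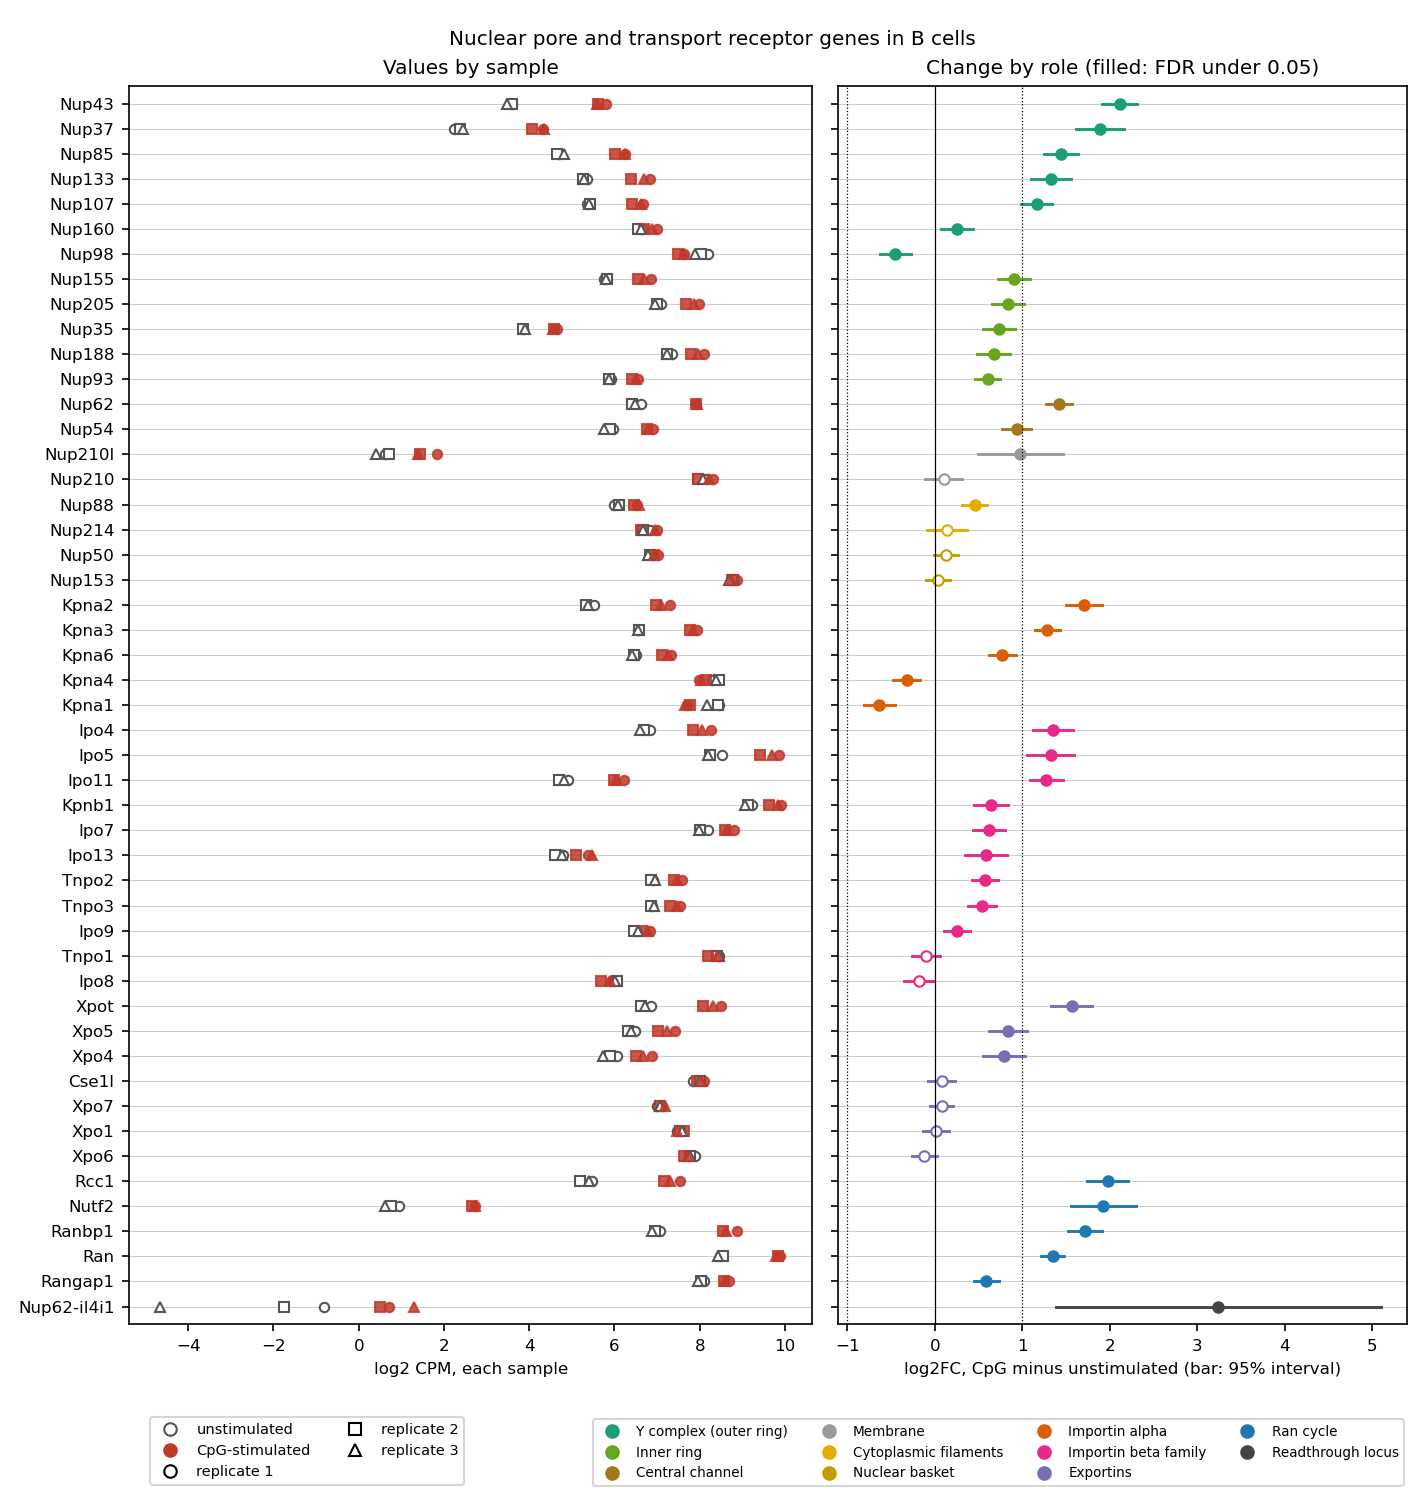
Left, log2 CPM of each of the 49 genes in each sample, with open symbols for unstimulated and filled red symbols for CpG-stimulated samples. Right, log2FC with its 95% interval, colored by role and filled where the FDR was under 0.05. In the upper rows (Nup43 to Nup107) and in the Ran cycle near the bottom, red and open symbols lie well apart, while in the nuclear basket and 4 of the 7 exportins the intervals reach 0.

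The reference held promoter sequence (RefSeq, GRCm38.p6, 250 bases before to 50 after a start site) for 38 of the 49 members. The E-box CACGTG, which reads the same on both strands and is bound by helix-loop-helix factors such as MYC, was found in 8 of the 38 (21.1%). It was found in 7.15% of all 32851 windows and in 12.4% of the 8400 tested genes with a window. The 8 genes were Ipo4, Ipo7, Nup188, Nup54, Nup93, Ran, Tnpo2 and Xpot, all of which rose, as did 36 of all 49 members (73.5%). Among the 13 members with a window and a log2FC over 1 there were 3 (Ipo4, Ran and Xpot). Their share, 23.1%, was near the 21.1% of all 38, and a relation of the E-box to the rise was not tested. Shown are the sites of those 3 genes, of Nup54, which had the next largest log2FC of the 8, and 1 of 2 sites of Tnpo2, where the E-box shares its last bases with a match to the AP-1 motif TGANTCA. The strand is that of the gene, capitals mark the E-box, and positions of its first base are counted from the start site.
Ran, chr5:129020011-129020070, + strand, E-box at -118: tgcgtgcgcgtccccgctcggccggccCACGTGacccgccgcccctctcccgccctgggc
Xpot, chr10:121626523-121626582, - strand, E-box at -231: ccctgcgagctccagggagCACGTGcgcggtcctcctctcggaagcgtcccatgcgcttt
Ipo4, chr14:55635653-55635682, - strand, E-box at 15: tgtcggagtctcCACGTGccgatcctcccc
Nup54, chr5:92435267-92435326, - strand, E-box at -100: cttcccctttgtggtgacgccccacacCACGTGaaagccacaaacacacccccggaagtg
Tnpo2, chr8:85036711-85036770, + strand, E-box at -155: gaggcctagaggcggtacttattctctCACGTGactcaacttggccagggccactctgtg

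Other motifs were searched on both strands in the same windows, and each share of members is given against that of tested genes. The NRF1 motif CGCATGCG was found in 5 members (13.2% against 4.85%): Nup107, Nup50, Nup62, Ran and Xpo5. The AP-1 motif was found in 5 members, Ipo4, Ranbp1, Tnpo1, Tnpo2 and Xpot (13.2% against 5.75%), and the CRE TGACGTCA in 2, Nup133 and Nup214 (5.26% against 3.74%). The GC box GGGCGG (76.3% against 69.1%) and the NF-Y motif CCAAT (50% against 43.3%) were common in both, and the ETS motif CCGGAAG (15.8% against 21.6%) and TATAAA (10.5% against 8.30%) were less so. The NF-κB motif GGACTTTCC was in 0 of 38 member windows and in 0.560% of tested genes. Of the windows outside chromosome 18, 1.87% held the NRF1 motif, 7.81% the AP-1 motif, 1.79% the CRE and 35.7% the GC box. A further 37.4% held CCAAT, 8.86% the ETS motif, 13.6% TATAAA and 0.344% the NF-κB motif, with overlap between motifs possible. A match describes these letters only, and no test was made of the shares.

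The Y complex is the scaffold of the outer rings, and of its 7 genes under the naming rule 6 rose (85.7%, against 37.6% of all genes tested). Other subunits, such as Sec13 and Seh1l, are described with the genes outside the rule. Nup43 (chr10:7667503-7678881, + strand, GRCm38), a propeller protein of the short arm, was 5.81, 5.60 and 5.60 log2 CPM in CpG-stimulated replicates 1 to 3, and 3.59, 3.60 and 3.48 in unstimulated ones. The groups were far apart, and its log2FC of 2.11 (SE 0.09, FDR 4.14e-08), a 4.33-fold rise, was the largest of the 48 members expressed in both groups. Nup37, a partner of NUP160 on the scaffold, was 4.31, 4.06 and 4.36 against 2.25, 2.37 and 2.44, with a log2FC of 1.89 (SE 0.12, FDR 3.99e-07).

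Nup85, which anchors the short arm, was 6.25, 6.01 and 6.24 against 4.70, 4.65 and 4.81 (log2FC 1.45, SE 0.09, FDR 2.39e-07). Nup133, at the tip of the stem, was 6.83, 6.40 and 6.68 against 5.37, 5.27 and 5.28 (log2FC 1.33, SE 0.10, FDR 1.23e-06), and 12.6% of its exon bases overlap genes on the opposite strand. Nup107, its neighbor in the stem, was 6.66, 6.41 and 6.63 against 5.36, 5.44 and 5.41 (log2FC 1.17, SE 0.08, FDR 5.14e-07). In these 5 genes every CpG-stimulated sample lay above every unstimulated one, as in 39.1% of all genes tested.

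The other 2 of the 7 genes behaved differently. Nup160, a scaffold protein of the other short arm, was 6.99, 6.69 and 6.89 against 6.64, 6.54 and 6.63. Its groups lay close together, and its log2FC of 0.25 (SE 0.08, FDR 0.0174) did not pass without CpG-stimulated replicate 1 (FDR 0.0642) or 3 (FDR 0.0586) or unstimulated replicate 2 (FDR 0.0658). Nup98, which is encoded as a precursor with Nup96, so that 1 gene gives an FG nucleoporin and a Y complex subunit, was 7.64, 7.50 and 7.63 against 8.18, 8.04 and 7.89. It fell by 0.45 on the log2 scale (SE 0.08, FDR 0.000536), and it was the only nucleoporin of the 20 to fall.

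Per kilobase of exon, the range over the 7 Y complex genes under the naming rule was narrower after CpG. In unstimulated cells their mean levels ran from 1.91 (Nup37) to 5.0 (Nup98) log2 CPM per kb, a range of 3.10. In CpG-stimulated cells they ran from 3.80 (Nup37) to 5.31 (Nup43), a range of 1.51. The unstimulated order was Nup98, Nup160, Nup107, Nup85, Nup43, Nup133 and Nup37, and the CpG-stimulated order was Nup43, Nup85, Nup107, Nup98, Nup160, Nup133 and Nup37. In CpG-stimulated samples Nup85 (5.01 ± 0.13, SD, n = 3) and Nup107 (4.93 ± 0.13) were close. By replicate, Nup85 was 5.09, 4.85 and 5.08 and Nup107 was 5.02, 4.77 and 4.99, so Nup85 was slightly higher in each. The range of the inner ring was 1.94 in unstimulated and 1.71 in CpG-stimulated cells. These ranges are descriptions that rest on the highest and the lowest gene, and levels per kb depend on the annotated exons. Subunits outside the rule, such as Sec13 and Seh1l, were not in them and could change them.

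**Figure D2:**
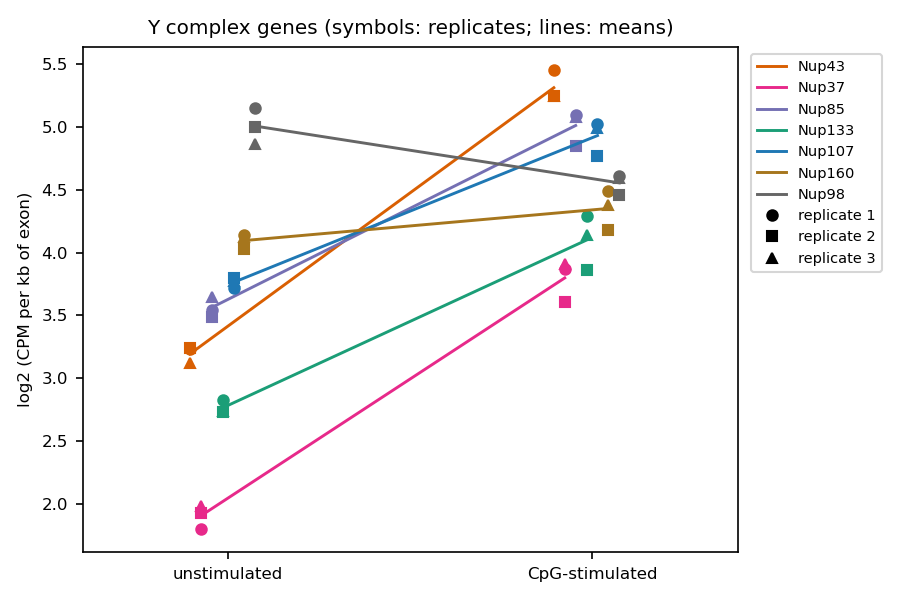
Level per kilobase of exon (log2 CPM per kb) of 7 Y complex genes in unstimulated and CpG-stimulated samples, with symbols for the 3 replicates and lines between group means. Lines that start between 1.91 and 5.0 end between 3.80 and 5.31, and those of Nup43 and Nup98 cross.

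All 5 inner ring genes rose, against 37.6% of all genes tested, and by similar amounts. Nup155, which links the ring to the membrane, had a log2FC of 0.91 (SE 0.08, FDR 3.81e-06). The large scaffold proteins Nup205 and Nup188 had log2FC values of 0.84 (FDR 7.99e-06) and 0.68 (FDR 3.94e-05). Nup35, a membrane-binding protein also known as Nup53, had a log2FC of 0.73 (FDR 1.97e-05), and Nup93, which tethers the central channel, 0.61 (FDR 1.18e-05). In all 5 every CpG-stimulated sample lay above every unstimulated one, as in 39.1% of all genes tested. For Nup35, 38.6% of 75-base stretches of its transcripts also occur in other genes, most of them in Gm4353.

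Both kept genes of the central channel rose, against 37.6% of all genes tested. Nup62 (chr7:44816088-44830812, + strand), whose FG repeats form part of the permeability barrier, was 7.92 in CpG-stimulated replicates 1 and 2 and 7.93 in replicate 3, and 6.61, 6.40 and 6.48 in unstimulated ones. Its log2FC was 1.42 (SE 0.07, FDR 6.07e-08), and its CpG-stimulated samples were closer to each other (SD 0.01) than those of any other member. Nup54, its partner in the channel, had a log2FC of 0.94 (SE 0.07, FDR 1.48e-06).

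Nup62-il4i1 is a readthrough transcript of the Nup62 locus into Il4i1, an amino acid oxidase known from B cells. RefSeq places it (as Il4i1b) at chr7:44816370-44840804, which overlaps Nup62. It was 0.70, 0.50 and 1.30 log2 CPM in CpG-stimulated samples and -0.82, -1.76 and -4.66 in unstimulated ones, so that unstimulated replicate 3 was below the value of 3 reads (-2.34). All 3 unstimulated samples were under the filter, so the gene was kept only for its CpG-stimulated level and had to differ. Its fitted log2FC of 3.24 depends on the offset that voom adds to low counts, its FDR was 0.103 with no filter on low values, and its place among the 36 members that rose is a description only. Il4i1 itself was 4.20, 4.72 and 4.61 against 1.68, 1.57 and 2.22. How reads shared by these genes were counted is not given in the sources used here.

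Members at the membrane and on both faces of the pore were mixed, and 2 of 6 rose, where 37.6% of all genes tested did. Of the 2 membrane members, Nup210l, a relative of Nup210 best known from the testis, was 1.83, 1.44 and 1.39 against 0.61, 0.72 and 0.40, with a log2FC of 0.98 (SE 0.22, FDR 0.00226). Per kb it was the lowest of the 48 members with an annotated length, at -0.96 in CpG-stimulated and -1.94 in unstimulated cells. Nup210, the pore membrane glycoprotein, overlapped between groups and had a log2FC of 0.10 (95% interval -0.11 to 0.31, FDR 0.354). Without CpG-stimulated replicate 2 its log2FC was 0.21 (FDR 0.0209).

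On the cytoplasmic side Nup88 rose (log2FC 0.46, SE 0.06, FDR 9.51e-05). Its partner Nup214 was 7.00, 6.61 and 6.96 against 6.82, 6.67 and 6.67, and its log2FC of 0.14 (95% interval -0.09 to 0.36, FDR 0.244) did not pass. CpG-stimulated replicate 2 was the low sample, and without it the log2FC was 0.26 (FDR 0.00593).

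On the nuclear side neither basket gene passed. Nup153, which anchors the basket, had a log2FC of 0.04 (95% interval -0.11 to 0.18, FDR 0.628). Nup50, a cofactor of importin alpha, had a log2FC of 0.13 (95% interval -0.01 to 0.26, FDR 0.0873) with groups that did not overlap, and it passed with the replicate number as a block (FDR 0.0409).

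Importin alpha proteins are the adaptors that recognize the classical nuclear localization signal and bind importin beta. Of the 5 expressed genes, 3 rose (60%, against 37.6% of all genes tested) and 2 fell (40%, near the 36.7% of all genes). Kpna2 (chr11:106988629-106999541, - strand), a form common in dividing cells, was 7.31, 6.97 and 7.08 log2 CPM against 5.53, 5.32 and 5.39. It rose 3.26-fold (log2FC 1.71, SE 0.09, FDR 1.44e-07) with no overlap, although 90.4% of 75-base stretches of its transcripts also occur in other genes, most of them in Gm10184, so its level is uncertain.

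Kpna3 was 7.94, 7.76 and 7.85 against 6.55, 6.58 and 6.56 (log2FC 1.29, SE 0.06, FDR 7.57e-08). Its closest paralog Kpna4, which like it is known to carry the p65 subunit of NF-κB, was 7.98, 8.15 and 8.02 against 8.28, 8.45 and 8.38, and it fell by 0.32 (SE 0.07, FDR 0.00196). The paralogs thus moved in opposite directions. The fall of Kpna4 did not pass a test against a fold of 1.2 (FDR 0.318).

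Kpna6 was 7.33, 7.12 and 7.26 against 6.51, 6.46 and 6.42 (log2FC 0.77, SE 0.07, FDR 3.46e-06). Its paralog Kpna1 was 7.70, 7.78 and 7.65 against 8.44, 8.43 and 8.17, and it fell by 0.64 (SE 0.08, FDR 4.51e-05), to 0.644 of its unstimulated level. This was the most negative log2FC of the 49 members. In all 5 genes the groups did not overlap. Of all genes tested, 39.1% had no overlap with CpG higher and 38.6% with CpG lower.

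The order of levels within the family changed with these moves. Per kb of exon, the unstimulated order was Kpna1 (6.01), Kpna4 (5.23), Kpna3 (4.54), Kpna2 (4.18) and Kpna6 (3.93 log2 CPM per kb). After CpG it was Kpna2 (5.89 ± 0.17, SD, n = 3), Kpna3 (5.83 ± 0.09), Kpna1 (5.38 ± 0.07), Kpna4 (4.91 ± 0.09) and Kpna6 (4.70 ± 0.10). Kpna2 and Kpna3 did not differ beyond their spread after CpG, and the range over the 5 genes was 1.19 after CpG against 2.09 without it.

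Ratios within each sample were compared as well. The log2 ratio of Kpna2 to the mean of the other 4 genes was -0.43, -0.73 and -0.62 in CpG-stimulated samples and -1.92, -2.16 and -1.99 in unstimulated ones. The difference was 1.43, with no overlap, and the two-sided exact permutation p of 0.1 is the smallest that 3 against 3 samples can give. The ratio per kb of Kpna3 to Kpna4, chosen after the values were seen and not tested, was 0.92 ± 0.18 (SD, n = 3) after CpG and -0.69 ± 0.07 without, so that Kpna3 was below Kpna4 in every unstimulated sample and above it in every CpG-stimulated one. That of Kpna6 to Kpna1 was -0.68 ± 0.16 against -2.09 ± 0.11 and stayed below 0.

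**Figure D3:**
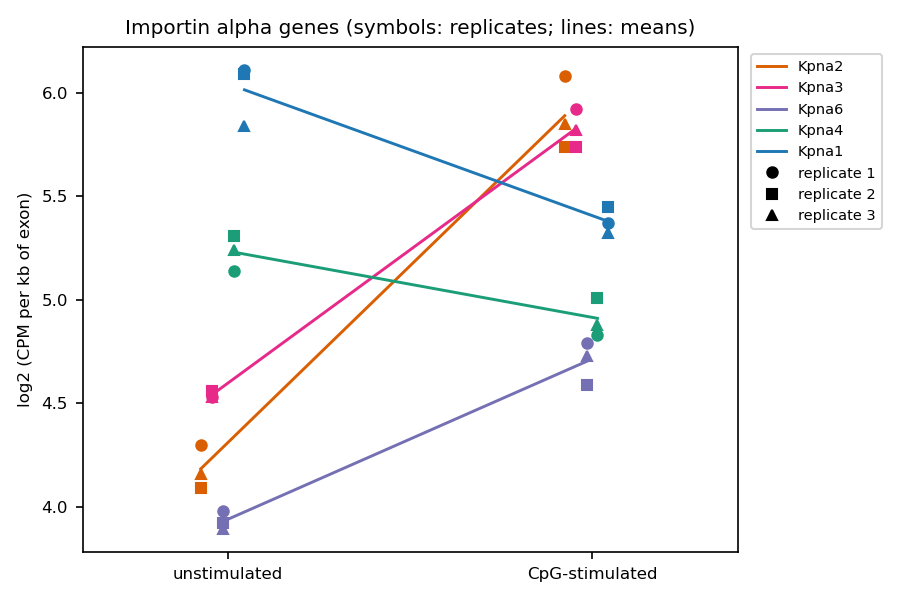
Level per kilobase of exon (log2 CPM per kb) of the 5 importin alpha genes, with symbols for the 3 replicates and lines between group means. Kpna1 and Kpna4, the highest in unstimulated samples at 6.01 and 5.23, slope down, and Kpna2 and Kpna3 end above them at 5.89 and 5.83.

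Among the 11 genes of the importin beta family, 9 rose (81.8%, against 37.6% of all genes tested) and 0 fell (against 36.7%). Kpnb1, importin beta itself, which carries importin alpha and its cargo through the pore, was 9.91, 9.61 and 9.83 against 9.23, 9.14 and 9.05 (log2FC 0.64, SE 0.09, FDR 6.72e-05). Its groups did not overlap. Per kb it was the highest of the 11 in unstimulated cells (6.58). After CpG, Ipo5 was the highest (7.48 ± 0.24, SD, n = 3), and Kpnb1 was at 7.23 ± 0.15. By CpG-stimulated replicate, Ipo5 was 7.69, 7.23 and 7.51 and Kpnb1 was 7.35, 7.05 and 7.27, so Ipo5 was higher in each.

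The 3 genes over a log2FC of 1 were Ipo4, Ipo5 and Ipo11. Ipo4, which carries histones H3 and H4, was 8.26, 7.84 and 8.06 against 6.83, 6.70 and 6.61 (log2FC 1.35, SE 0.10, FDR 1.14e-06). It carries the E-box shown above, and 59.3% of 75-base stretches of its transcripts also occur in Gm49378. Ipo5, an importin of ribosomal proteins and histones, was 9.87, 9.40 and 9.69 against 8.53, 8.25 and 8.21 (log2FC 1.33, SE 0.12, FDR 4.09e-06). Ipo11 was 6.21, 5.99 and 6.04 against 4.90, 4.71 and 4.81 (log2FC 1.28, SE 0.09, FDR 4.72e-07). In each of the 3 genes CpG-stimulated replicate 1 was the highest sample and no group reached the other.

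Smaller rises were found for Ipo7 (log2FC 0.62, FDR 5.01e-05), another importin of ribosomal proteins, and for Ipo13 (0.58, FDR 0.000636), which works in both directions. The transportins Tnpo2 (0.58, FDR 2.39e-05) and Tnpo3 (0.54, FDR 6.82e-05), carriers of RNA-binding proteins and of SR splicing factors, rose to a like extent. For Tnpo2, 10.9% of exon bases overlap a gene on the opposite strand. Ipo9 rose least (0.25, SE 0.07, FDR 0.00611), and not against a fold of 1.2 (FDR 0.717).

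Tnpo1 and Ipo8 did not pass. Tnpo1, the paralog of Tnpo2, overlapped between the groups and had a log2FC of -0.10 (95% interval -0.26 to 0.07, FDR 0.251). Ipo8, the paralog of Ipo7, was lower in every CpG-stimulated sample, with a log2FC of -0.18 (95% interval -0.35 to -0.01, FDR 0.0551). It passed with the replicate number as a block (FDR 0.0297) and without CpG-stimulated replicate 1 (FDR 0.0375).

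Of the 7 exportins, 3 rose (42.9%, near the 37.6% of all genes tested), 0 fell (against 36.7%) and 4 did not pass. The share over a log2FC of 1 was 14.3%, near the 15.8% of all genes. Xpot, the exporter of tRNA, was 8.50, 8.08 and 8.32 against 6.85, 6.62 and 6.73 (log2FC 1.57, SE 0.10, FDR 4.47e-07), a 2.96-fold rise with no overlap, and its promoter holds the E-box printed above. Xpo5, the exporter of microRNA precursors, had a log2FC of 0.83 (SE 0.10, FDR 2.55e-05), and Xpo4, which exports eIF5A, 0.79 (SE 0.11, FDR 7.78e-05).

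Xpo1, or CRM1, the exporter of proteins with leucine-rich export signals, was 7.54, 7.63 and 7.46 against 7.46, 7.53 and 7.59. The groups overlapped, and its log2FC was 0.01 (95% interval -0.13 to 0.16, FDR 0.858). Cse1l, which returns importin alpha to the cytoplasm, had a log2FC of 0.08 (95% interval -0.07 to 0.23, FDR 0.319), and Xpo7 had 0.08 (95% interval -0.05 to 0.21, FDR 0.254).

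Xpo6, the exporter of actin, was lower in every CpG-stimulated sample but did not pass (log2FC -0.12, 95% interval -0.26 to 0.02, FDR 0.114), and with the replicate number as a block its FDR was 0.0498. With this block, 5 members fell: Kpna1, Kpna4, Nup98, Ipo8 and Xpo6. The mean of the 7 exportins relative to the mean of the 11 importin beta genes was -0.09, -0.02 and -0.09 on the log2 scale in CpG-stimulated samples and 0.07, 0.12 and 0.10 in unstimulated ones. The difference was -0.16, and the two-sided exact permutation p was 0.1, the smallest possible.

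All 5 genes of the Ran cycle rose, against 37.6% of all genes tested, and 4 of them had a log2FC over 1, against 15.8%. Rcc1 (chr4:132331919-132353605, - strand), the exchange factor that loads Ran with GTP on chromatin, was 7.53, 7.16 and 7.30 against 5.47, 5.19 and 5.40. It rose 3.94-fold (log2FC 1.98, SE 0.10, FDR 1.13e-07), and its groups were far apart. Ran, the GTPase whose promoter site is shown first above, was 9.87, 9.83 and 9.80 against 8.48, 8.54 and 8.44 (log2FC 1.35, SE 0.06, FDR 4.55e-08).

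Ranbp1, which helps RANGAP1 to take Ran off exportins, was 8.86, 8.54 and 8.63 against 7.06, 6.94 and 6.89 (log2FC 1.72, SE 0.09, FDR 9.33e-08). For it, 20.7% of 75-base stretches also occur in another gene, Gm49776. Per kb, Ranbp1 (8.51 ± 0.17, SD, n = 3) and Ran (8.44 ± 0.04) were the highest of the 48 members after CpG and did not differ beyond their spread, and Ran (7.09) was the highest in unstimulated cells.

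Rangap1, the activator of GTP hydrolysis, was 8.68, 8.57 and 8.59 against 8.10, 8.02 and 7.95, and it rose less than the other 4 (log2FC 0.59, SE 0.06, FDR 1.35e-05). The log2 ratio of Rcc1 to Rangap1 was -1.15, -1.41 and -1.29 after CpG and -2.63, -2.83 and -2.55 without. The difference was 1.39, with a two-sided exact permutation p of 0.1, again the smallest possible.

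Nutf2, or NTF2, which brings Ran back into the nucleus, was low in both groups, at 2.72, 2.67 and 2.73 against 0.95, 0.75 and 0.62 (log2FC 1.93, SE 0.17, FDR 2.88e-06). Of 75-base stretches of its transcripts, 90.8% also occur in other genes, most of them in Nutf2-ps1, for which no sample had a read. Its level is therefore uncertain.

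Members varied together between replicates. CpG-stimulated replicate 1 was the highest of its group in 39 of 49 members (79.6%, against 37.6% of all genes tested), and replicate 2 was the lowest in 39 (79.6%, against 41.7%). The median deviation from the group mean was 0.09 in replicate 1, -0.11 in replicate 2 and 0.01 in replicate 3. In unstimulated samples replicate 1 was the highest in 30 members (61.2%, against 36.4%), and the median deviations were 0.06, -0.02 and -0.02. Replicate 2 of both groups was also the sample with the highest erythroid sum, and whether this bears on the deviations was not tested.

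**Figure D4:**
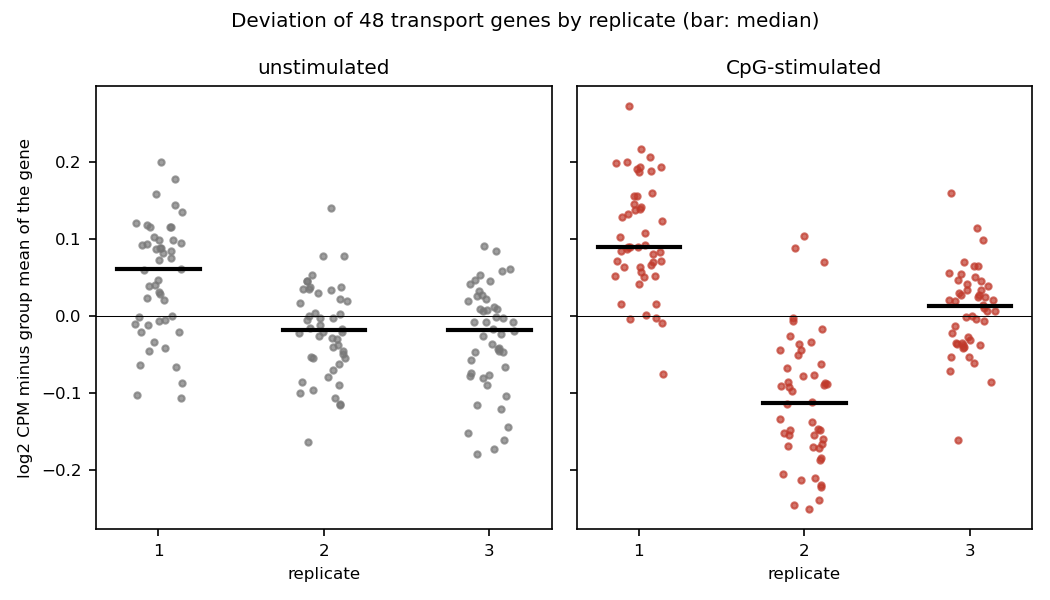
Deviation of each of 48 genes from its group mean (log2 CPM) by replicate, unstimulated on the left and CpG-stimulated on the right, 1 point per gene, bars at the median and points spread sideways for clarity. In CpG-stimulated samples most points of replicate 1 lie above 0 and most of replicate 2 below it.

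The spread itself was small. The median SD of the members was 0.13 in CpG-stimulated and 0.08 in unstimulated samples, against 0.13 and 0.11 over all genes. The median SE of their log2FC was 0.08, against 0.10. Across the 48 members with an annotated length, the log2FC fell with the unstimulated level per kb (Pearson r -0.307, Spearman rho -0.333). This is a description across genes that share the same 6 libraries, and the level is part of the log2FC.

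Most pathway genes outside the naming rule rose as well. Of 53 genes in 3 lists, 46 were tested: 31 rose (67.4%, against 37.6% of all genes), 8 fell (17.4%, against 36.7%) and 7 did not pass, with a median log2FC of 0.54. Those over 1 were 9 (19.6%), near the 15.8% of all genes. Among 14 other pore proteins, 11 rose, 1 fell and 2 did not pass. The 2 over a log2FC of 1 were Nupl2, a filament protein that binds the mRNA export factor GLE1, and Tmem48, the transmembrane anchor NDC1. Nupl2 was 4.86, 4.17 and 4.27 against 2.79, 2.88 and 2.94 (log2FC 1.56, SE 0.17, FDR 1.32e-05), and Tmem48 was 5.07, 4.80 and 4.98 against 3.97, 3.86 and 3.88 (log2FC 1.05, SE 0.09, FDR 3.77e-06).

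The Y complex subunits Sec13 and Seh1l, named after their values were seen, rose by log2FC values of 0.86 (FDR 7.79e-07) and 0.64 (FDR 5.58e-06). Pom121, a membrane nucleoporin, had a log2FC of 0.49 (SE 0.11, FDR 0.00224). Tpr, the filament of the basket, had a log2FC of 0.01 (95% interval -0.13 to 0.15, FDR 0.922). Ranbp2, the large SUMO ligase of the cytoplasmic filaments, fell by 0.19 (SE 0.07, FDR 0.0389). The fall did not pass when CpG-stimulated replicate 2 (FDR 0.0885) or 3 (FDR 0.0643) or any of unstimulated replicates 1 to 3 (FDR 0.115, 0.0532 and 0.0948) was left out.

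Of 21 mRNA export factors, 12 rose (57.1%), 4 fell (19.0%) and 5 did not pass, with a median log2FC of 0.41. Their share over 1, 3 of 21 (14.3%), was no higher than the 15.8% of all genes. These 3 were Ddx39, a helicase of the export complex (1.31, FDR 4.06e-08), Alyref, the adaptor that links mRNA to the exporter (1.15, FDR 1.94e-07), and Nxt1, the small subunit of the exporter (1.10, FDR 1.14e-06). Nxf1, the large subunit and partner of NXT1, had a log2FC of -0.14 (95% interval -0.30 to 0.01, FDR 0.0900), and passed with the replicate number as a block (FDR 0.0408) and without unstimulated replicate 1 (FDR 0.0193). For Ddx39, 20.5% of exon bases overlap Adgre5 on the opposite strand.

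Of 11 Ran-binding proteins and adaptors, 8 rose (72.7%, against 37.6% of all genes tested) and 3 fell (27.3%, against 36.7%). Their median log2FC was 0.81. Nmd3, which takes the large ribosomal subunit to CRM1, was 7.33, 7.33 and 7.27 against 6.05, 6.07 and 5.92 (log2FC 1.30, SE 0.06, FDR 7.82e-08). Ncbp2, of the cap-binding complex (1.52, FDR 2.11e-06), and Snupn, the import adaptor of spliceosomal snRNPs (1.06, FDR 4.41e-06), were also over 1. Rangrf, or MOG1, had the largest log2FC of the 46 (2.24, SE 0.23, FDR 1.09e-05), but all of its exon bases overlap Slc25a35 on the opposite strand. Ranbp6, Ranbp9 and Ranbp10 fell by 0.41 (FDR 0.00225), 0.50 (FDR 5.50e-05) and 0.76 (FDR 2.72e-05).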

How the data were processed

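The 6 samples of mRNA (3 CpG-stimulated, 3 unstimulated) were compared. The authors trimmed reads with Trim Galore 0.6.5, aligned paired reads of 75 bases to mm10 with STAR 2.6.1a, counted them per gene with featureCounts (Subread 2.0.1), quantile normalized the counts and transformed them with voom, so the deposited values are in log2 CPM. The annotation, and the handling of strand and of reads that match several genes, are not given in the sources used here. The value of a gene without reads, -5.15, was taken as 0.5 reads, which gives 17.8 M reads per library, 10 reads at -0.76 and 3 reads at -2.34. Those cover counting error only. Depths of single samples are not in the values.

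Groups were compared over 11233 genes with limma 3.58.1 in R 4.3.3 (lmFit, eBayes with a trend), and FDR is the Benjamini-Hochberg adjusted p over all of them. Rose and fell mean an FDR under 0.05. The written design allowed for linear values, and as the deposited ones are log2 they were tested as they are. Of 200 genes raised by a log2FC of 1 among 11233 in simulated data, 143 were called, with 7 unchanged ones. In the real data far more genes passed, 4227 up and 4123 down, so this share does not carry over to them. Ratios of genes were compared with exact permutation tests that took the samples as unpaired. With samples paired by replicate number, an exact sign-flip test of 3 differences cannot give a p under 0.25. The labels name 3 mice, and replicate 3 differs in sex from replicates 1 and 2, but no label ties each sample to a mouse, so p values measure the spread between these samples.

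Samples with the same replicate number deviated from their group means together (r 0.435, 0.224 and 0.300, against -0.281 to 0.0279 for different numbers), and the numbers were treated as pairing the samples in a fit with the replicate number as a block. The deposited values also carry a shift by number: of 1688 genes under 1 read in all samples and with unequal values, 1472 (87.2%) had the same values by number in both groups, within 0.005. Such a shift raises these correlations, and number 3 is also the male sample of both groups. The part of sex in them was not tested.

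Members, role lists and the 3 lists of other genes were chosen with earlier results of these data known. All members are named; values by sample are given for those past a log2FC of 1, for importin alpha, the Ran cycle, Kpnb1 and Xpo1, and others shown by sample were chosen later. Genes of the other lists are named when past a log2FC of 1, with Ranbp2, Tpr, Pom121, Nxf1 and Nxt1, and others where stated or where they fell among Ran-binding genes, chosen after their values were seen. Exon lengths, opposite-strand overlap and shared 75-base stretches were computed from GENCODE genes of GRCm38. Alternatives were 14 planned ones (filters, block, samples left out, scale, variance trend, centring, a test against a fold of 1.2), and leaving out replicate 2 of both groups was added after seeing the data.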

Additional observations from a re-analysis of the deposited data

How the results depend on the processing

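Over 14 other settings and the omission of replicate 2 of both groups, which was chosen after seeing the data, between 34 and 38 members rose (35 to 38 when 1 sample was left out), between 16 and 19 had a log2FC over 1, and 0 were under -1. Members falling were 3, and 5 with the replicate block, with 3 shared, and between 2 and 4 otherwise. The block changed the calls of Nup50, Ipo8, Xpo6 and Nxf1 and of no other gene named. Other transport genes falling were 8, and 4 in a test against a fold of 1.2, the cause of which was not tested. All genes over a log2FC of 1 were 1778, and between 1331 (on log2(CPM + 1)) and 1851 under alternatives.

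Of 928 values of 62 named genes under alternatives, 891 kept direction and side of the threshold, 20 (6 genes) lost the call, 10 (6 genes) gained it and 7 (3 genes) changed sign. Signs changed in genes near 0 that did not pass. With 1 sample left out, log2FC ranged from -0.0302 to 0.0568 for Xpo1, from -0.00833 to 0.0622 for Nup153 and from -0.0212 to 0.0523 for Tpr, and without replicate 2 of both groups it was -0.028 for Xpo1. The cause was not tested. With no filter on low values, Nup62-il4i1 (FDR 0.103), Nup160 (FDR 0.11), Ranbp2 (FDR 0.149) and Pom121 (FDR 0.0589) did not pass. With 3 samples a group no exact test can give a p under 0.1.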
